A study of Mus musculus with 6 samples.

Results

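Basp1, Gap43, Marcks, Marcksl1, Crmp1, Dpysl2, Dpysl3, Dpysl4 and Dpysl5 encode 9 abundant proteins of the axonal growth cone, and their transcripts were followed in the embryonic mouse forebrain. These 9 genes are part of 33084 in the count table. Basp1 was chosen by its measured values, since its level was higher in all mutant than in all control libraries, so its genotype difference is described with no test. The other 8 are growth cone proteins related to it in function or location. All 9 passed the filter on low counts, which left 19616 genes to test, and the lowest level of any of them in any library was 131 CPM (counts scaled to a common library size after TMM normalization).

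The study sequenced RNA from forebrains dissected at embryonic day 15.5. The control group holds 3 wild-type (wt) mice and the mutant group 3 mice of the genotype Dyrk1a<DlxCre/+>, in which the kinase gene Dyrk1a is conditionally inactivated within the territory of Dlx5, the home of forebrain GABAergic neurons and their precursors. The genotype name carries a + allele, so a functional copy remains within the domain as far as the name tells. Whole forebrain was sequenced, so a difference limited to the Dlx5 domain is diluted by the other cells. The labels do not say whether the wild-type mice carried Cre or a conditional allele, nor whether litters were shared, and p-values measure only the spread between these samples.

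The growth cone is the motile tip of a growing axon. GAP43, BASP1 and the MARCKS proteins coat the inner face of its membrane, where they bind acidic phospholipids and calmodulin and tie the actin cytoskeleton to signals through protein kinase C. The collapsin response mediator proteins (CRMPs, encoded by Crmp1 and the Dpysl genes) are cytosolic. They bind tubulin and carry the collapse signal of semaphorin 3A, and kinases such as CDK5, DYRK2 and GSK3 phosphorylate them. Immature neurons of the developing brain make all of these proteins in large amounts.

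The membrane members are anchored by their amino terminus, and the start of the reading frame shows how they fall into kinds. BASP1, MARCKS and MARCKSL1 are known to carry a myristoyl group on the glycine that follows the initiator methionine, while GAP43 is palmitoylated on cysteines near its start. The first 10 codons of 8 members are shown 5′ to 3′ from the GENCODE M21 transcripts (build GRCm38), with the second codon in capitals. Each stretch lies within 1 exon.
Basp1 (chr15:25364880-25364909, reverse strand): atgGGAggcaagctgagcaagaagaagaag
Marcks (chr10:37138506-37138535, reverse strand): atgGGTgcccagttctccaagaccgcagcg
Marcksl1 (chr4:129513830-129513859, forward strand): atgGGCagccagagctctaaggctccccgg
Gap43 (chr16:42340473-42340502, reverse strand): atgCTGtgctgtatgagaagaaccaaacag
Crmp1 (chr5:37246058-37246087, forward strand): atgTCTcatcaggggaagaagagcatcccg
Dpysl2 (chr14:66868339-66868368, reverse strand): atgTCTtatcaggggaagaaaaatattcca
Dpysl4 (chr7:139086123-139086152, forward strand): atgTCCttccaaggcaagaagagcattccc
Dpysl5 (chr5:30745226-30745255, forward strand): atgCTTgccaattcagccagcgtgcggatt
Basp1, Marcks and Marcksl1 each have a glycine codon there, and Gap43 has a leucine codon followed by a pair of cysteine codons. Of the 4 CRMP genes shown (Dpysl3 is named only), Crmp1, Dpysl2 and Dpysl4 have a serine codon there and resemble each other, and Dpysl5 differs from them.

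Over the whole coding sequence Crmp1 and Dpysl2 were 74.3% identical, the highest value of the 10 CRMP pairs, and Dpysl5 was between 60.0% and 62.2% identical to the other 4. Marcks and Marcksl1 shared 64.7% of aligned bases, 388 of 600, and the rest of the 927 alignment columns held gaps. Marcksl1 and Dpysl4, of different families, matched at 411 of 598 aligned bases. The Marcks and Marcksl1 value therefore does not set that pair apart from members of different families. No 2 members shared an exact stretch longer than 29 bases. In searches of 50 bases, Basp1, Gap43 and the 5 CRMP genes shared no stretch with a transcript of another gene. Marcksl1 shared such stretches with 3 genes, among them its pseudogene Marcksl1-ps4 with 128 counts in all 6 libraries together, and Marcks shared short runs of 1 to 9 positions with 15 genes. Crmp1 lies opposite Evc, Dpysl5 contains Gm42764 and Gap43 contains Mir6540, and in each case 0 exon bases were shared.

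The libraries held between 24646616 and 38315004 counts. Dyrk1a stood between 159 and 186 CPM in the 6 libraries, with a log2 fold change of -0.02 ± 0.09 (SE), and its count spans the whole gene, so it does not check the genotype labels. Forebrain markers were present in every library, with Emx1, Emx2, Lhx2 and Otx1 summing to between 118 and 175 CPM in controls and between 149 and 201 CPM in mutants. GABAergic lineage markers, which include cells of the Dlx5 domain, summed to between 312 and 372 CPM in controls and between 345 and 360 CPM in mutants. Markers of post-mitotic neurons summed to between 5305 and 6258 CPM in controls and between 5368 and 6175 CPM in mutants. Radial glia and dividing progenitor markers summed to between 1691 and 2480 CPM in controls and between 1821 and 2598 CPM in mutants. Choroid plexus markers ranged from 273 to 325 CPM in controls and from 285 to 428 CPM in mutants. Both of these sums were higher in the mutant at each replicate number, as no other marker set was, and this was not tested. The replicate 3 libraries of both genotypes stood apart from the other 4, with red cell markers at 395 and 402 CPM against 108 to 131 CPM, and radial glia and dividing progenitor markers at 2480 and 2598 CPM against 1691 to 1937 CPM.

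Per length, the members were among the most abundant transcripts of the forebrain. Marcksl1 averaged 450 ± 41.0 CPM per kilobase of merged exons over the 6 libraries (SD, n = 6), rank 30 of the tested genes, where the median tested gene had 4.39. Dpysl3 followed at 303 ± 21.4 and Dpysl2 at 258 ± 27.1 (CPM per kilobase). Marcks averaged 142 ± 31.8, Gap43 124 ± 17.1 and Basp1 116 ± 24.5 CPM per kilobase, and these 3 overlapped in their ranges. Crmp1 averaged 76.9 ± 12.2, Dpysl5 31.6 ± 2.60 and Dpysl4 24.0 ± 2.00 CPM per kilobase. The Crmp1 range, from 58.6 to 92.6, overlapped that of Basp1, from 79.2 to 139.7, although Basp1 was higher within each of the 6 libraries. Even Dpysl4, the lowest member, ranked 1789 among the tested genes.

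The order was steady between libraries in 4 places. The lowest Marcksl1 level lay above the highest Dpysl3 level, the lowest Dpysl2 level above the highest Marcks level, and Crmp1, Dpysl5 and Dpysl4 did not overlap from 1 to the next. Dpysl3 and Dpysl2 overlapped in range, although Dpysl3 was higher within each of the 6 libraries. Crmp1 has a longest transcript of 3051 bases within 7046 bases of merged exons. Divided by the longest transcript, it averaged 178 ± 28.2 CPM per kilobase and moved from place 7 to place 4, while the first 3 and the last 2 members kept their places.

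**Figure D1:**
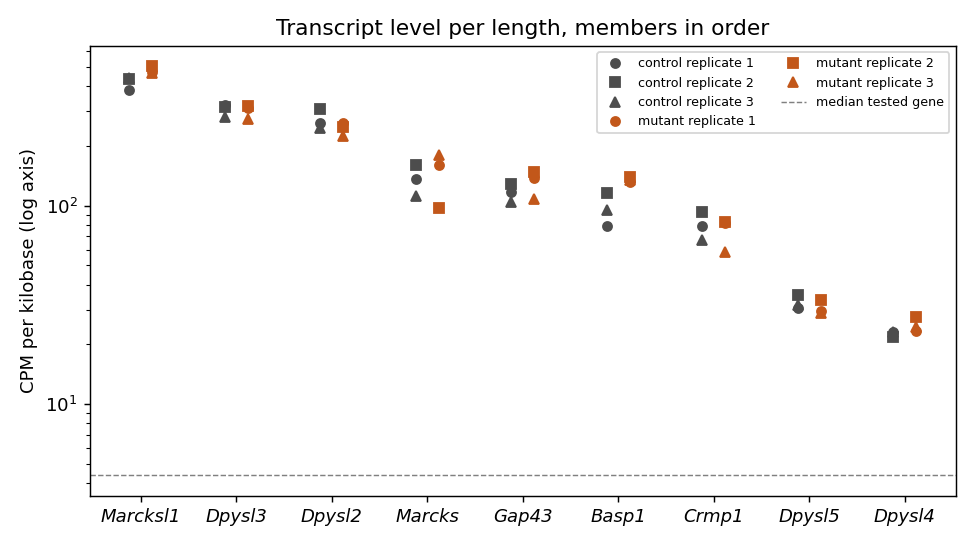
Level of each member in CPM per kilobase of merged exons (log axis) for the 3 control and 3 mutant libraries, 1 point per library, with members ordered by their mean and a dashed line at the median tested gene (4.39). Marcksl1 averaged 450 and Dpysl4 24.0. Marcks, Gap43 and Basp1 overlapped in range, and Basp1 also overlapped Crmp1.

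Basp1 (ENSMUSG00000045763, GRCm38 chromosome 15, 25363277 to 25413764, reverse strand) encodes the myristoylated brain acid-soluble protein that gathers phosphoinositides under the membrane. It stood at 159, 234 and 190 CPM in control replicates 1, 2 and 3, and at 265, 281 and 271 CPM in the mutant replicates. All 3 mutants exceeded the highest control, the controls were spread and the mutants were close together. Controls averaged 194 ± 37.7 CPM and mutants 272 ± 7.66 CPM (SD, n = 3 each). The fitted log2 fold change was 0.49 ± 0.13 (SE), or 1.40-fold. Since this difference picked the gene, no p and no interval are given, and its size and SE may look more favourable than in a gene not so chosen. In bulk tissue, more RNA per cell and more cells of a type that makes it cannot be told apart, here or for the genes that follow.

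The size of the Basp1 difference varied with the library left out, while its sign was fixed by the choice of a gene whose groups do not overlap. It was 0.36 without control replicate 1, the lowest library, and 0.64 without control replicate 2, the highest control, and between 0.46 and 0.51 when any other library was left out. Within replicate numbers, mutant minus control was 0.74, 0.26 and 0.51 log2 units for replicates 1, 2 and 3. With the replicate number as a block the value was 0.50 ± 0.10 (SE). The sign of these values follows from the same choice and supports nothing further. The replicate 3 libraries, which stood apart in many genes, were not unusual for Basp1: replicate 3 minus the mean of replicates 1 and 2 was -0.02 in controls and -0.01 in mutants.

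Gap43 (ENSMUSG00000047261, chromosome 16, 42248442 to 42340651, reverse strand), the classic growth-associated protein and a protein kinase C substrate, stood at 179, 196 and 160 CPM in control replicates 1, 2 and 3 and at 210, 225 and 164 CPM in the mutants. Mutant replicate 3 fell among the controls, so the groups overlapped. The log2 fold change was 0.17 ± 0.13 (SE), and its 95% interval ran from -8.67% to 38.0% relative to controls. Leaving out mutant replicate 2 gave 0.07, leaving out control replicate 3 gave 0.10 and leaving out mutant replicate 3 gave 0.29. Gap43 did not pass in edgeR (Benjamini-Hochberg adjusted p = 0.9999). Set against each other within a library, where scaling cancels, Basp1 over Gap43 per kilobase was 0.676, 0.904 and 0.903 in controls and 0.956, 0.946 and 1.25 in mutants, with no overlap. Basp1 was the gene picked, so this ratio carries the same choice.

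Marcksl1 (ENSMUSG00000047945, chromosome 4, 129513581 to 129515985, forward strand) encodes the small MARCKS-like actin-binding protein. Its level was 615, 698 and 704 CPM in the controls and 754, 808 and 751 CPM in the mutants, and the groups did not overlap. Controls averaged 672 ± 49.9 CPM and mutants 771 ± 32.1 CPM (SD, n = 3 each). The log2 fold change was 0.20 ± 0.09 (SE), with a 95% interval from 0.236% to 31.2% above the control level. The unadjusted p was 0.0469 and the adjusted p 0.9999 in edgeR's quasi-likelihood test, so Marcksl1 did not pass. It was the single member with a test to have an unadjusted p under 0.05, as 1.92% of all tested genes had. With the trend of each library with GC content and length removed, the value was 0.09 ± 0.07 (SE).

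Marcks (ENSMUSG00000069662, chromosome 10, 37133375 to 37138920, reverse strand), the major myristoylated protein kinase C substrate that cross-links actin, had the widest spread among mutants. It stood at 555, 646 and 456 CPM in controls and at 653, 395 and 733 CPM in mutants. The lowest and the highest library were both mutants, replicates 2 and 3, and the coefficient of variation among mutants was 29.7%, against 2.81% for Basp1. Its log2 fold change was 0.10 ± 0.22 (SE) with a 95% interval from -23.4% to 50.9% (edgeR adjusted p = 0.9999). Leaving out mutant replicate 2 gave 0.33, leaving out mutant replicate 3 gave -0.07 and leaving out control replicate 3 gave -0.01. Replicates 1 and 2 alone gave -0.19. The ratio of Marcksl1 to Marcks per kilobase was 5.16 in mutant replicate 2 and between 2.59 and 3.90 in the other 5 libraries.

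**Figure D2:**
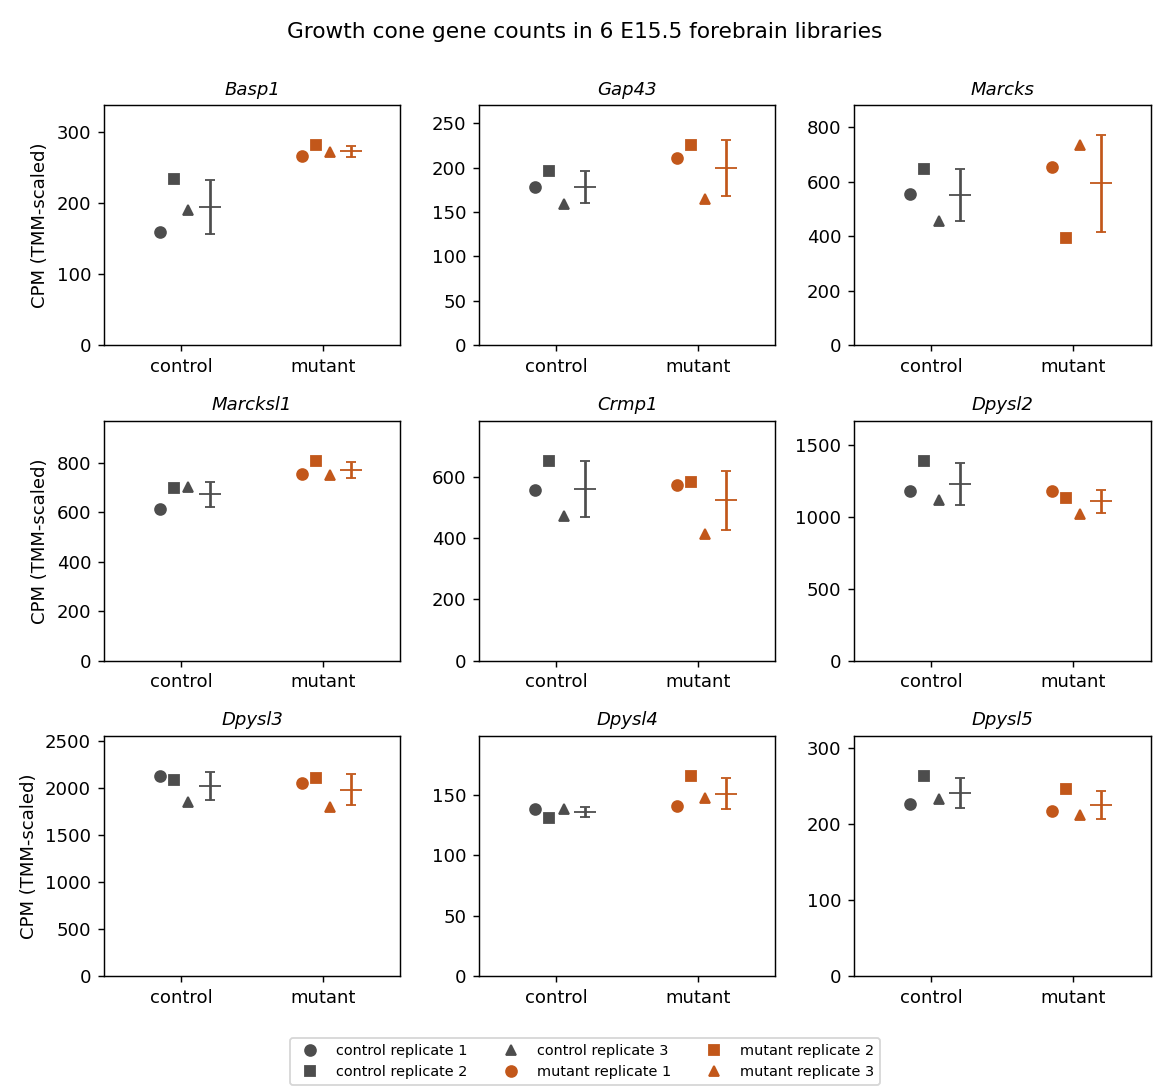
CPM of the 9 members in each of the 6 libraries (axes start at 0), with circles, squares and triangles for replicates 1, 2 and 3 and the mean ± SD of each group (n = 3) beside the points. Mutant and control libraries do not overlap for Basp1, Marcksl1 and Dpysl4 and overlap for the other 6.

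The fitted log2 fold changes of the CRMP genes ran from -0.15 to 0.15, 4 of 5 below 0 and Dpysl4 above. None of the 5 passed in edgeR, each with an adjusted p of 0.9999. The signs of Crmp1 and Dpysl3 turned when single libraries were left out: Crmp1 reached 0.03 when control replicate 2 was dropped and 0.05 when mutant replicate 3 was dropped. Dpysl3 reached 0.01 on dropping control replicate 1 and 0.04 on dropping mutant replicate 3.

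Dpysl3 (ENSMUSG00000024501, chromosome 18, 43320984 to 43438286, reverse strand) encodes CRMP4, which bundles actin in the growth cone, and had the most counts of all members. It stood at 2128, 2086 and 1852 CPM in controls and at 2052, 2107 and 1800 CPM in mutants. Replicate 3 was lowest in each group and the groups overlapped. Its log2 fold change was -0.03 ± 0.09 (SE), and the 95% interval ran from -15.2% to 13.8%.

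Dpysl2 (ENSMUSG00000022048, chromosome 14, 66802864 to 66868688, reverse strand) encodes CRMP2, which carries tubulin to growing microtubules and promotes axon formation. Controls held 1178, 1387 and 1113 CPM and mutants 1176, 1127 and 1020 CPM, with control replicate 2 above all others. The log2 fold change was -0.15 ± 0.10 (SE) with a 95% interval from -23.2% to 6.35%, and the value was -0.05 without control replicate 2 and -0.09 on dropping mutant replicate 3.

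Crmp1 (ENSMUSG00000029121, chromosome 5, 37241940 to 37292133, forward strand), a mediator of semaphorin 3A and reelin signals, was at 556, 653 and 472 CPM in controls and at 575, 584 and 413 CPM in mutants. Its replicate 3 libraries were the 2 lowest. The log2 fold change was -0.10 ± 0.16 (SE), and the 95% interval, from -27.1% to 19.9%, was the widest among the CRMP genes.

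Dpysl5 (ENSMUSG00000029168, chromosome 5, 30711564 to 30799375, forward strand) encodes CRMP5, a restraint on neurite outgrowth. It stood at 226, 263 and 233 CPM in controls and 217, 247 and 212 CPM in mutants, with replicate 2 highest in each group. Mutants differed by -0.10 ± 0.10 (log2, SE), with a 95% interval from -19.8% to 9.0%. The value was -0.03 when control replicate 2 was left out, -0.05 when mutant replicate 3 was, and -0.17 when mutant replicate 2 was.

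Dpysl4 (ENSMUSG00000025478, chromosome 7, 139086001 to 139102704, forward strand) encodes CRMP3, the least abundant member here. Controls were close together at 138, 131 and 139 CPM, and mutants stood at 141, 165 and 147 CPM. All mutant libraries were above all controls, and mutant replicate 1 was close to the control range. The log2 fold change was 0.15 ± 0.09 (SE), with a 95% interval from -3.50% to 28.0%, and the value without mutant replicate 2 was 0.08.

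Of the 8 members other than Basp1, Marcksl1 and Dpysl4 had groups that did not overlap, both with mutants above. Over all tested genes 3.19% had every mutant library above every control, and 3.70% had every mutant below, as 0 of the 9 members did. At an adjusted p under 0.05, 0 of the 8 members and 0% of all genes were called by edgeR. Without adjustment 376 genes had a p under 0.05 in edgeR and 261 in DESeq2, which also called 0. With the replicate number as a block that count was 765, and 0 genes were called. The median log2 fold change was 0.10 over the 9 members, 0.04 over the 8 without Basp1 and -0.01 over all genes tested. The median over the 9 members includes Basp1 and was the value of Marcks, the member with the widest spread among mutants. It was -0.01 when control replicate 3 was left out, 0.04 when mutant replicate 1 was and 0.05 when mutant replicate 3 was. Leaving out control replicate 3 thus turned its sign. All 3 membrane members other than Basp1 were above 0, Marcks with the exceptions given for its left-out libraries. Over all tested genes 9324 of 19616 were above 0. The 5 CRMP genes had a median of -0.10, and the difference between membrane and CRMP members was not tested.

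**Figure D3:**
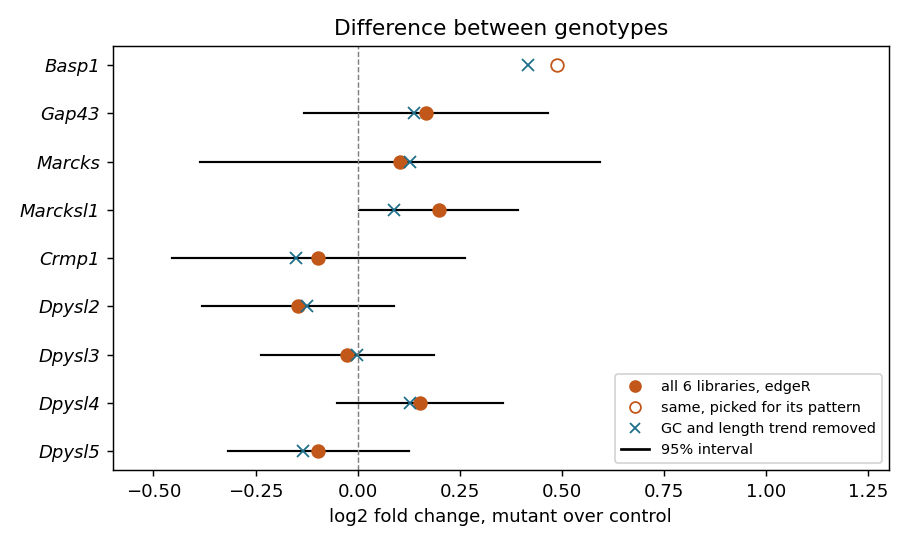
Log2 fold change, mutant over control, of the 9 members from the fit of all 6 libraries (circles, open for Basp1, which was picked for its pattern) with 95% intervals (lines, not drawn for Basp1), and the value with each library's GC content and length trend removed (crosses). Of the 8 tested members, all but Marcksl1 have intervals that include 0, and Marcksl1 moves from 0.20 to 0.09.

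Within the CRMP family Dpysl3 and Dpysl2 made up most of the summed level in both genotypes. Dpysl3 made up 43.0% ± 2.10 of the summed CRMP level per kilobase in controls and 44.5% ± 0.39 in mutants (SD, n = 3 each). Dpysl2 made up 38.0% ± 1.65 and 36.3% ± 1.11, and Crmp1 11.1% ± 0.83 and 10.9% ± 1.15. Dpysl5 had 4.60% ± 0.30 and 4.53% ± 0.30, and Dpysl4 had 3.21% ± 0.37 in controls and 3.75% ± 0.37 in mutants. These shares depend on the length used. Divided by the longest transcript, Crmp1 averaged 178 CPM per kilobase over the 6 libraries in place of 76.9, and Dpysl3 366 in place of 303. Dpysl2 stayed at 258, so the shares would differ on that scale. The summed level was 712 ± 62.4 CPM per kilobase in controls and 676 ± 57.1 in mutants. Within replicate numbers 1, 2 and 3 the Dpysl4 share went from 3.23% to 3.33%, from 2.83% to 3.88% and from 3.57% to 4.03%, higher in the mutant each time. The summed level went from 715 to 705, from 773 to 712 and from 648 to 610 CPM per kilobase, lower in the mutant each time. None of these differences was tested.

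GC content differed among the members, and differences between libraries followed it. With tested genes split into 10 classes of about equal size by GC content, class 10, from 57.5% upward, had a median log2 fold change of 0.12 and class 9 of 0.05, against -0.09 in class 1. Mutant replicate 2 was the most tilted, at 0.24 in class 10 and -0.33 in class 1 relative to the control mean. Class 10 minus class 1 was 0.58 in that library, 0.06 in mutant replicate 1, -0.03 in mutant replicate 3 and from -0.15 to 0.18 in controls, so 1 mutant library stood apart and the other 2 lay within the control range. Marcksl1, with 58.2% GC in its longest transcript, lies in class 10, and Basp1 (56.4%), Crmp1 (56.0%), Dpysl4 (55.3%) and Dpysl5 (56.6%) in class 9. Marcks has the lowest value, 45.1%, although 75.6% of its coding bases are G or C, close to the 74.5% of Basp1. With the GC content and length trend removed, Basp1 was at 0.42, Gap43 at 0.14, Marcks at 0.13 and Dpysl4 at 0.13. On the same scale Crmp1 was at -0.15, Dpysl2 at -0.12 and Dpysl5 at -0.13.

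Replicate 3 divided the members. Gap43, Crmp1, Dpysl2 and Dpysl3 were lower in both replicate 3 libraries than in all 4 others, as 17.1% of all tested genes were, while Basp1, Marcks, Marcksl1, Dpysl4 and Dpysl5 were not. Replicate 3 minus the mean of replicates 1 and 2 was -0.35 log2 units in controls and -0.49 in mutants for Crmp1, and -0.23 and -0.40 for Gap43. For Dpysl2 it was -0.20 and -0.17, and for Dpysl3 -0.19 and -0.21. Neuron markers had medians of -0.29 and -0.20 on that scale, progenitor markers 0.57 and 0.53, oligodendrocyte precursor markers -0.52 and -0.91 and red cell markers 1.76 and 1.68. The part of these cell types in the members' values was not tested. Marcks went opposite ways, at -0.39 in controls and 0.53 in mutants.

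**Figure D4:**
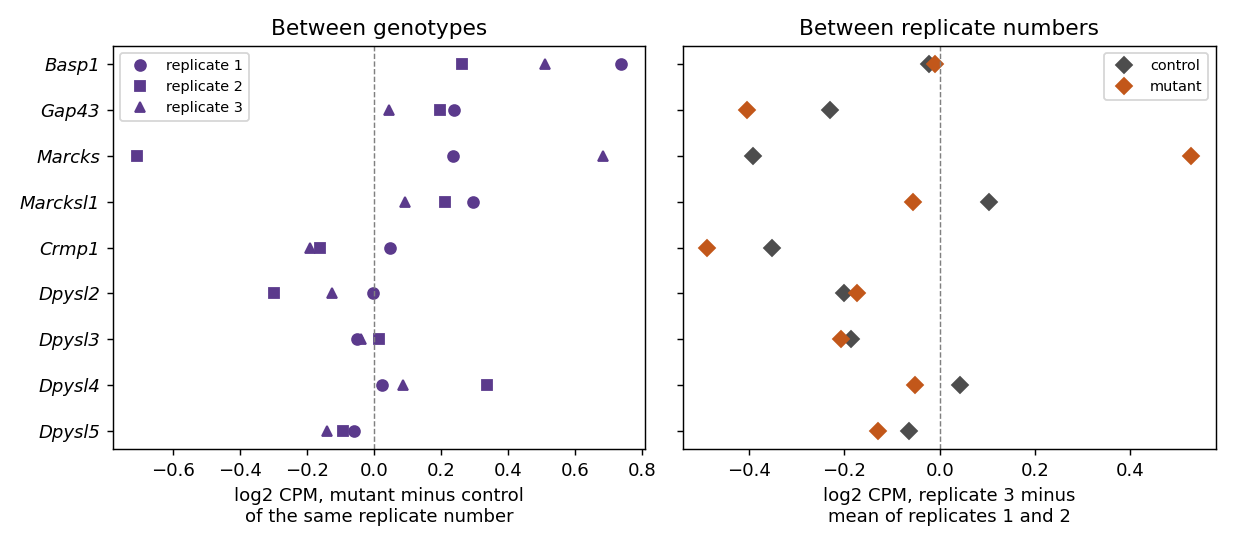
Left, log2 CPM of the mutant minus the control library of the same replicate number for each member. Right, log2 CPM of replicate 3 minus the mean of replicates 1 and 2 within each genotype. Basp1 ranges from 0.26 to 0.74 on the left, with a sign fixed by its choice, and is near 0 on the right, where Gap43, Crmp1, Dpysl2 and Dpysl3 lie below 0 in both genotypes.

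The genes whose profile over the 6 libraries was most like that of Basp1 were found by the root mean square difference of log2 CPM, each gene centred on its mean, among 12792 genes averaging above 5 CPM. They were Rps4l (difference of 0.02 log2 units), a ribosomal protein gene, Zfp771 (0.08), a zinc finger gene, Nr2f6 (0.08), an orphan nuclear receptor gene, Ppp2r3d (0.09), a phosphatase subunit gene, and Bloc1s4 (0.09), which encodes a subunit of an endosomal sorting complex. Rps4l stood at 8.99, 13.3 and 10.6 CPM in controls and at 15.0, 15.8 and 14.7 CPM in mutants. The other members were farther: Marcksl1 took place 147 (0.19), Gap43 place 1027 (0.26) and Dpysl4 place 1104 (0.26). Marcks took place 10904 (0.40), behind the median gene (0.33), as did Crmp1 (0.37) and Dpysl2 (0.35). These are descriptions over 6 libraries and share each library's depth and composition. Basp1 was picked for its genotype difference, so genes most like it have mutants above controls by the way they were found. The members' places partly restate their own genotype differences for the same reason.

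**Figure D5:**
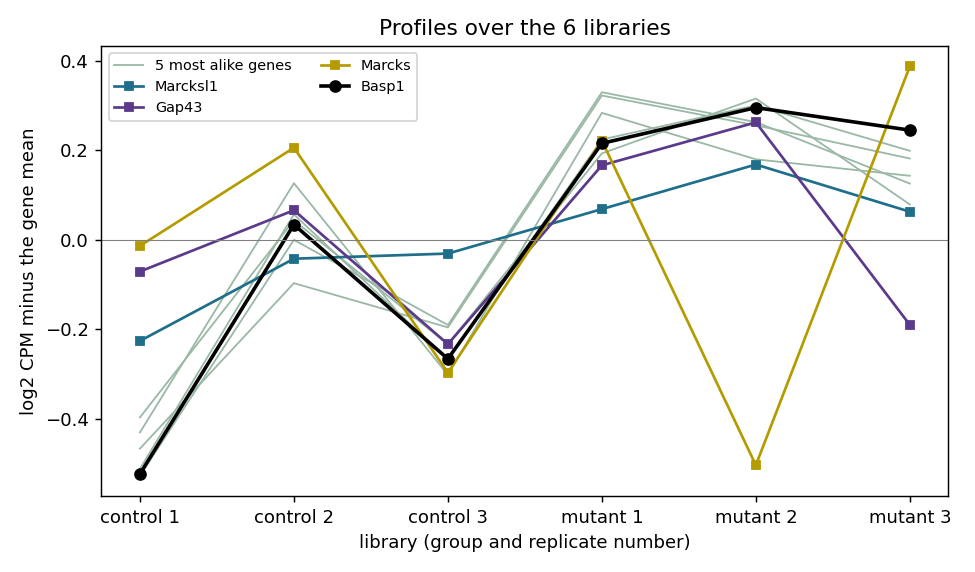
Log2 CPM minus the gene's mean over the 6 libraries for Basp1 (black), Gap43, Marcks and Marcksl1, and the 5 genes most like Basp1 (thin lines). Lines join the values of a gene and show no order of replicates. Basp1 and the 5 genes are lowest in control replicate 1, and Marcks departs in mutant replicate 2.

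Other genes of axon growth gave the members' surroundings, and none of their lists held a gene past the threshold. Of 27 genes of axon outgrowth, 11 lay above 0 and 16 below, with a median of -0.01, where all tested genes had 9324 above and 10292 below. The split turned to 16 above and 11 below with the GC content and length trend removed. Stmn3, a microtubule-destabilizing stathmin, had the smallest p of them and stood at 197, 187 and 176 CPM in controls and at 220, 246 and 185 CPM in mutants (0.21 ± 0.11, log2, SE). Klc1, a kinesin light chain, had 0.10 ± 0.08, with every mutant above every control, and Dcx, the microtubule protein of migrating neurons, -0.15 ± 0.13 (SE). Klc1 was the only gene of the 27 without overlap. Over all tested genes 3.19% had every mutant above and 3.70% every mutant below.

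Actin regulators of the growth cone were 18 above 0 and 10 below, of 28, with a median of 0.03, and 16 and 12 with the GC content and length trend removed. The values had a range from -0.12 to 0.19. Vasp, which promotes filament elongation, stood at 39.7, 41.1 and 47.8 CPM in controls and at 48.3, 49.6 and 48.5 CPM in mutants (0.19 ± 0.10, log2, SE). Its groups did not overlap, though 47.8 and 48.3 CPM are close. Of the 28 genes, 2 had every mutant above every control and 1 every mutant below, against 3.19% and 3.70% of all tested genes. Drebrin (Dbn1) had 0.15 ± 0.09 and the actin-sequestering Tmsb4x 0.15 ± 0.09 (log2, SE).

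Genes acting on CRMPs were split. Of 13 kinases and phosphatases, 8 lay above 0 and 5 below, with a median of 0.01. Gsk3b, a CRMP kinase, had -0.12 ± 0.09, the tyrosine kinase gene Fes -0.14 ± 0.15 and the CDK5 activator Cdk5r2 0.25 ± 0.31 (log2, SE). Fes, between 4.3 and 5.5 CPM, and Cdk5r2, between 4.7 and 10.0 CPM, had low levels. Of 10 genes of semaphorin 3A reception, 9 lay below 0, with a median of -0.05 and a range from -0.11 to 0.05, and 8 did with the GC content and length trend removed. The plexin A receptors had the smallest p: Plxna4 at -0.11 ± 0.08, Plxna2 at -0.10 ± 0.07 and Plxna3 at -0.07 ± 0.08 (log2, SE). Plxna2 stood at 1141, 1169 and 1134 CPM in controls and at 1095, 1105 and 1022 CPM in mutants, so its groups did not overlap. It was the only gene of the 10 without overlap, and 3.70% of all tested genes had every mutant below.

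Genes acting on the membrane members, such as protein kinase C and N-myristoyltransferase genes, were 12 above 0 and 10 below, of 22, with a median of 0.02, and 11 and 11 with the GC content and length trend removed. Metap2, an aminopeptidase that removes the initiator methionine, had -0.12 ± 0.09, and Pcp4, an IQ motif gene, 0.20 ± 0.17 (log2, SE). No gene of the 5 lists passed in edgeR (smallest adjusted p = 0.9999).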

How the data were processed

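The deposited values are raw read counts per gene with 1 column per library and no normalization, made by the authors with HISAT2 on GRCm38 release 93, SAMtools 1.9 and HTSeq 0.9.1, per the labels and the submitters' processing notes. Libraries were single-end, ribosomal RNA-depleted and strand-marked, per the labels' protocols. For the HISAT2 version and the strand setting of HTSeq, no value is given in the sources used here. The authors' own comparison used FCROS, per the labels, and was not used here. GENCODE M21 (GRCm38) gave symbols for 32888 of 33084 identifiers.

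Genes were filtered with edgeR 4.0.16 (filterByExpr, count minimum 10, total minimum 15), scaled by TMM and fitted by the quasi-likelihood test (robust, control against mutant, no covariate). Benjamini-Hochberg adjustment ran over all 19616 tested genes, with a threshold of 0.05. Each standard error is the fold change over the root of F. Log2 CPM used a prior count of 2. The fit was tested on simulated data. DESeq2 1.42.0 and limma 3.58.1 in R 4.3.3 gave alternatives. Deviations from the group means correlated at 0.338, 0.113 and 0.470 between libraries of the same replicate number, all above the limit of 0.1 set for pairing, so the numbers were treated as pairs in an alternative fit. Named genes were the 9 members, Dyrk1a, the 3 genes of smallest p in each pathway list and the 5 genes most like Basp1. Some results that fall under this rule are not reported here. Members and lists were chosen with earlier results of these data known. Counting error is small at this depth, and 3 libraries per group limit the precision.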

Additional observations from a re-analysis of the deposited data

How the results depend on the processing

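Over 15 alternative fits, Basp1 ranged from 0.36 to 0.64, with a sign fixed by its choice. Gap43 (0.07 to 0.29), Marcksl1 (0.09 to 0.26) and Dpysl4 (0.08 to 0.21) were above 0 in all 15, and Dpysl2 (-0.20 to -0.05) and Dpysl5 (-0.17 to -0.03) below 0 in all 15. The groups of Marcksl1 and Dpysl4 do not overlap, so leaving out libraries could hardly turn their signs. All these fits reuse the same libraries and are not independent. None of the 8 members with a test passed in any of them. The smallest adjusted p of a tested member was 0.386, for Marcksl1 in limma-voom with sample weights. Marcks was -0.19 with only replicates 1 and 2 and ranged from -0.0735 to 0.33 when leaving out 1 library. On leaving out 1 library Crmp1 ranged from -0.20 to 0.052 and Dpysl3 from -0.0767 to 0.0437, so these 3 signs were not fixed. The cause was not tested. With only replicates 1 and 2 the median of the 9 members was -0.0139, and 3 genes were called over the whole table, Hist1h2ag, Pisd-ps1 and Tmem181b-ps (named after their values were seen). The other fits called 0 genes. With the replicate number as a block 0 genes were called, Marcksl1 was at 0.20, and no call changed. The count at an unadjusted p under 0.05 was 765 with the block, 1909 in limma-voom with sample weights, 845 with a term for replicate 3 and 587 with no filter. Dropping control replicate 1 gave 179, dropping control replicate 3 gave 1060, dropping mutant replicate 2 gave 245 and dropping mutant replicate 3 gave 689. Replicates 1 and 2 alone gave 1544. Control replicate 2 correlated more with mutant replicate 1 (0.486) than with its own number.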
